A study of Mus musculus with 10 samples.

Results

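The interferon-stimulated genes described here are the mouse genes that cells switch on when interferons reach their receptors. Type I interferons act through the receptor chains Ifnar1 and Ifnar2 and the kinases Jak1 and Tyk2. These phosphorylate STAT proteins, among them STAT2, which joins IRF9 in a complex that binds the interferon-stimulated response element of target promoters. Interferon-γ acts through Ifngr1 and Ifngr2 and a STAT dimer that binds the gamma-activated site. The products of the target genes sense viral RNA and DNA, degrade or mask RNA, block budding or attack the vacuoles of pathogens. In B cell progenitors, type I interferon is also known to oppose the growth response to IL-7.

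The list holds 36 genes, taken by their names in the array's design files, each represented by its brightest probe over the 10 arrays. A probe of the listed name was found for 35 of them. Of these, 33 were tested, because Oas1g and Ifi205 were not well above background on any of the 10 arrays, and Trim30 had no probe of that name. The probe that the files call Trim30a, a name the mouse RefSeq table pairs with Trim30, is given apart and enters no count. The 33 were among 14436 gene names tested of 27218 on the array, and 21 of them were well above background on all 10 arrays.

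RNA was measured on one-colour Agilent arrays, 2 for each of 5 groups. Leukemias 686, 713 and 760 were B cell acute lymphoblastic leukemias taken from the lymph node of 3 mice of genotype Ebf1+/- Pax5+/- (dHet), each mouse with 2 arrays. The dHet pro-B cells were Ebf1+/- Pax5+/- Rag2-/- cells, grown over an OP9 feeder layer from c-Kit-positive fetal liver, with the cytokines Flt3L, SCF and IL-7. Sorted from bone marrow, the wt pro-B cells were Ebf1+/+ Pax5+/+ cells of Fraction BC. Ages are not given in the labels, nor is whether replicates are separate animals, cultures or labellings, so p-values may measure technical spread. Leukemias differ from wt pro-B cells in tissue and genotype, and from dHet pro-B cells in Rag2, tissue and culture, as well as in disease, and these cannot be told apart.

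A level is the log2 processed signal minus the 75th percentile of its array, so 0 is that percentile, and levels are compared between arrays for the same probe only. The share of probes well above background was 35.7% on leukemia 686 replicate 1 and between 42.1% and 52.4% on the other 9 arrays. Replicate 1 of each leukemia lay on slide 1 and replicate 2 on slide 2, while all 4 pro-B arrays lay on slide 3. Slide and group can therefore be separated among leukemias but not between leukemias and pro-B cells. The B lineage markers Cd79a, Cd79b, Vpreb1, Igll1, Cd24a and Rag1 were well above background on all 10 arrays. In the dHet pro-B group, Xist was at -5.96 and 5.17 and the Y-linked Ddx3y at 1.56 and -6.14 on replicates 1 and 2, so these 2 arrays did not hold the same RNA.

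Promoter letters are shown first for 13 genes that differed in at least 1 comparison and hold a motif, because they are the part of each gene that interferon signalling is known to address. The windows run from 250 bases before to 50 bases after the transcription start and come from RefSeq on GRCm38.p6, which had an entry for 27 of the 36 genes. Both strands were searched for 3 motifs: the core of the response element (GAAANNGAAA), the gamma-activated site (TTCNNNGAA) and a composite of ETS and IRF letters (GGAANNGAAA), and they may overlap one another. Each line gives a stretch upstream of the start, 5′ to 3′ on the gene's strand, with every match in capitals, and a match on the opposite strand appears as its reverse complement. The first 7 genes differed between the leukemias and hold the response element core. The next 4 differed between leukemias and pro-B cells and hold it together with another of the 3 motifs. Irf1 holds a gamma-activated site without the core, and Ifi44 the composite alone.
Gbp3 (chr3:142559984-142560029, plus strand): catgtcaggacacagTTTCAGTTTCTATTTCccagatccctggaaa
Gbp2 (chr3:142620589-142620628, plus strand): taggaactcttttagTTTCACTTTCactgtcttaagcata
Irgm1 (chr11:48871421-48871465, minus strand): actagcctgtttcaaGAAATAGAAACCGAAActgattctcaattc
Isg15 (chr4:156200860-156200911, minus strand): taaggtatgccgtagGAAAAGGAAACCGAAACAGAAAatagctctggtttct
Ifit3 (chr19:34583358-34583431, plus strand): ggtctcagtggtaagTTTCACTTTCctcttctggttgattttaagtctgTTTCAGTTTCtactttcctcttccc
Rsad2 (chr12:26456548-26456587, minus strand): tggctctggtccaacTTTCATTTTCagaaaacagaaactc
Oas3 (chr5:120777710-120777749, minus strand): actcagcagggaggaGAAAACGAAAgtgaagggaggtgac
Oas1a (chr5:120907526-120907638, minus strand): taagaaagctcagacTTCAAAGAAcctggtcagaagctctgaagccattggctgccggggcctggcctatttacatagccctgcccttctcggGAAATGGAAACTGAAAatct
Igtp (chr11:58199496-58199546, plus strand): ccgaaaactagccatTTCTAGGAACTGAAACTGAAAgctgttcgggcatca
Stat2 (chr10:128270261-128270306, plus strand): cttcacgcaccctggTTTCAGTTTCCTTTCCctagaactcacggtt
Bst2 (chr8:71537572-71537623, minus strand): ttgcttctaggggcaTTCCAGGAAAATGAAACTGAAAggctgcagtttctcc
Irf1 (chr11:53769909-53769947, plus strand): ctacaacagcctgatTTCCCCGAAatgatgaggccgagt
Ifi44 (chr3:151749934-151749973, minus strand): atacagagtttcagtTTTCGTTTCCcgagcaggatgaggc

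The response element core was found for 17 of the 27 genes (63.0%), against 1079 of 27025 genes with a window in the whole table (3.99%). The gamma-activated site was found for 7 (25.9%, against 9.55% of all genes) and the composite for 3 (11.1%, against 3.16%). Isg15, Gbp3, Irgm1, Bst2, Oas1a and Oas1g hold overlapping copies of the core, which in Oas1a begin at positions -20 and -14 from the start. None of the 3 motifs was found in the windows of Oasl1, Oasl2, Irf7, Irf9 and Xaf1. These are matches of letters in a fixed window and say nothing of binding. Gbp3 and Irgm1, higher in leukemia 713, and Isg15, higher in leukemia 760, hold the core, whereas Oasl1 and Oasl2, higher in 713, and Irf7 and Xaf1, higher in 760, hold none of the 3.

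**Figure D1:**
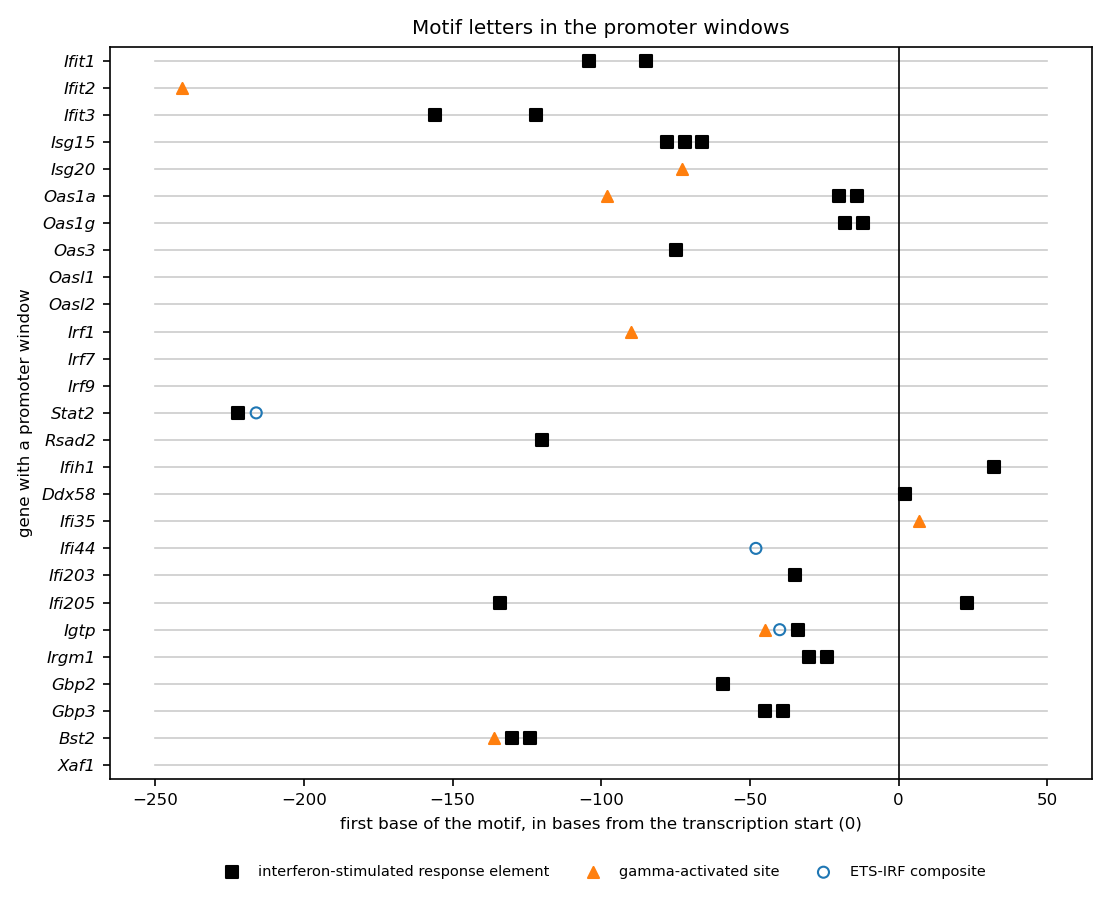
Positions of the 3 motifs in the promoter windows of the 27 genes with an entry; the x axis gives the first base of a match in bases from the transcription start, negative values lie upstream, squares mark the response element core, triangles the gamma-activated site and open circles the composite. In Isg15, Gbp3, Irgm1, Bst2, Oas1a and Oas1g neighbouring squares are overlapping copies, and 5 genes carry no mark.

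The first comparison asked how the 3 leukemias, all of the same genotype, differed from one another in these genes. Leukemia 686 was the low one: it had the lowest mean of the 3 leukemias for 28 of 33 genes, whereas leukemia 713 had the highest mean for 17 and leukemia 760 for 15. Over all 14436 genes the lowest mean was that of 686 in 28.8%, and the highest was that of 713 in 37.6% and of 760 in 33.8%. By limma's moderated F test 19 of the 33 genes differed among the leukemias, against 16.3% of all genes tested. Leukemia 686 against the other 2 was lower for 13 genes and higher for 0, against 4.27% of all genes in either direction, 2.53% lower and 1.74% higher. At an unadjusted p under 0.05, 27 genes were lower and 0 higher, and the difference was below 0 for 32. Leukemia 713 was higher for 11 and lower for 1, against 15.4% of all genes in either direction, 8.88% higher and 6.48% lower. Leukemia 760 was higher for 9 and lower for 1, against 12% in either direction, 5.34% higher and 6.63% lower. The 3 differences of a gene sum to 0, so a low level in 686 alone raises those of 713 and 760. The counts of the 3 leukemias are therefore not separate results. Of 4 sex-linked genes tested (Xist, Ddx3y, Eif2s3y and Kdm5d), 1 was higher and 3 lower in 760 at an unadjusted p under 0.05 by limma. Their median log2 difference in 760 was -5.40, and 0 passed after adjustment. The part of sex in the differences between the mice was not tested.

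The median difference of the 33 genes was -0.90 on the log2 scale for 686, 0.46 for 713 and 0.47 for 760, while those of all genes were at or close to 0. Scaled by the array median, the median of all genes in 686 was itself -0.36. The share of higher genes among all called in 686 was then 22.2%, against 40.7% in the scaling used here. The 33 genes lay -0.89 from the median of all genes in both, which is fixed, since each scaling subtracts 1 value per array. With quantile normalization this distance was -1.09, in the authors' table of log2 values -0.60, and with the normexp background correction described below -0.69. Each leukemia here is 1 mouse with 2 arrays, so the tests compare mice on the spread between arrays. The difference in 686 was below 0 on both slides for 30 of the 33 genes, with medians of -0.91 on slide 1 and -1.19 on slide 2. All 13 genes called lower kept that sign on both, but they were called from these same arrays, so this is no separate test. Both arrays of 686 detected 22 of the 33 genes, against 29 for 713 and 31 for 760. Among the 21 genes detected on all 10 arrays, 10 differed by the F test (12.8% of 9533 such genes) and 6 were lower in 686. Fitted on the 6 leukemia arrays alone with slide as a block, the F test called 20 genes, 17 of them among the 19. With the scan day as a block in all 10 arrays it called 29. With the normexp background correction, which adds an offset and damps dim spots, limma called 4 by the F test, 0 in 686, 4 in 713 and 1 in 760. Over all genes it then called 0 higher and 0 lower in 686, 251 and 109 in 713, and 71 and 129 in 760. At an unadjusted p under 0.05, 14 of the 33 genes were lower and 0 higher in 686 with normexp, and 31 were below 0. In 760 with normexp 17 of the 33 were above and 16 below 0.

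**Figure D2:**
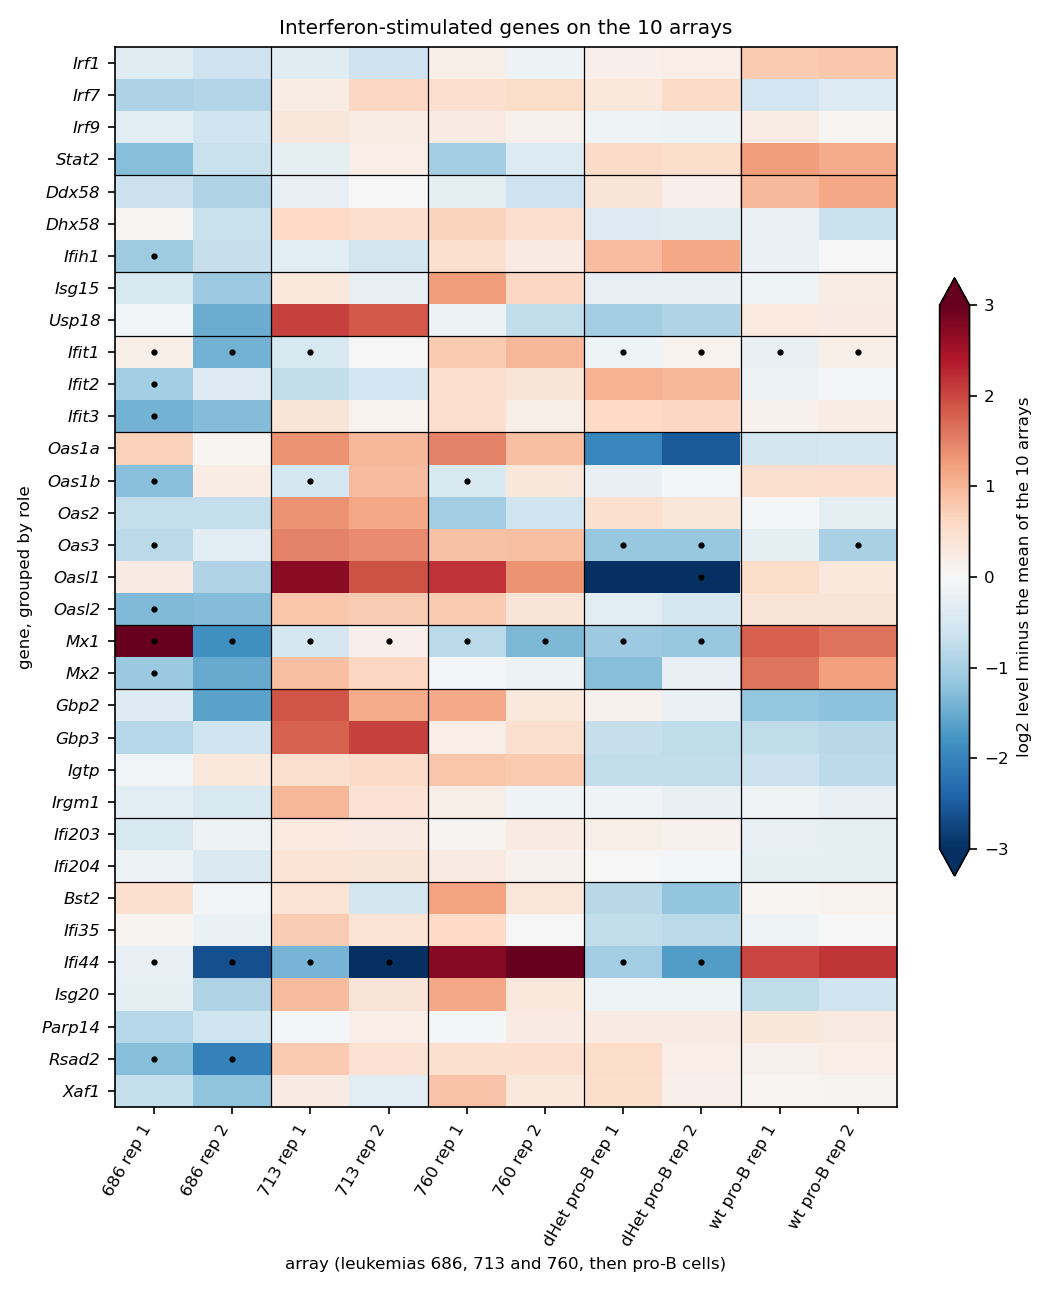
Log2 levels of the 33 tested genes on each array, as the difference from the gene's mean over the 10 arrays (colour, cut at -3 and 3); columns are arrays, rows are genes grouped by role, and dots mark spots not well above background. The columns of leukemia 686 are blue for most genes, Gbp3, Usp18 and Oas2 are red in leukemia 713, and Ifi44 is red in leukemia 760 and wt pro-B cells alone.

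The calls depended on single arrays to different degrees. Leaving out 1 array at a time, the F test called between 13 and 19 genes. Fewer of the 33 genes were called in 686 each time. Their median difference in 686 was -1.20 without 686 replicate 1, the array with the lowest share of detected probes, and -0.91 without its replicate 2. Without 1 array of 713 or 760 it lay between -0.92 and -0.89. Leaving out a pro-B array moved no difference between leukemias (median -0.90 in 686) and only changed the estimated spread. Calls in 686 over all genes then fell too. The median in 713 was 0.44 without its replicate 1 and 0.46 without its replicate 2. In 760 it was 0.34 and 0.56. Both had fewer calls without either of their own arrays, and without 760 replicate 1 only Ifi44 kept its call there. Leukemia 760 also had fewer calls without any 1 of the pro-B arrays.

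Of the 4 transcription factors Irf7 and Irf9 differed. Irf7, which drives type I interferon transcription and feeds the response forward, had levels of -1.37 and -1.33 in leukemia 686, -0.22 and 0.16 in 713, 0.05 and 0.11 in 760, -0.13 and 0.13 in dHet pro-B cells and -1.03 and -0.86 in wt pro-B cells. Both arrays of 686 lay below every other array. Irf7 was 2.59-fold lower in 686 than in the other 2 leukemias (log2 difference -1.37 ± 0.17 SE, adjusted p = 0.00871). It was higher in 760 than the mean of 686 and 713 (0.77 ± 0.17 SE, adjusted p = 0.0264). The means of 760 and 713 were close (0.08 and -0.03). Irf9, the DNA-binding partner of STAT2, had levels of 1.35 and 1.07 in leukemia 686, 2.01 and 1.89 in 713, 1.93 and 1.80 in 760, 1.54 and 1.53 in dHet pro-B cells and 1.91 and 1.71 in wt pro-B cells. The arrays of 686 were the lowest, but only the F test passed (adjusted p = 0.046; 686 minus the other 2 -0.69 ± 0.15 SE, adjusted p = 0.0534). A second probe of Irf9 lay the other way in 686 (difference 0.65). Irf1 and Stat2 did not differ by the F test (adjusted p = 0.182 and 0.164), and Stat2 passed with slide as a block on the 6 arrays (adjusted p = 0.0342).

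Of the RNA sensors only Ifih1, which encodes MDA5, the sensor of long double-stranded RNA, was called. Its levels were -2.02 and -2.24 in leukemia 760, -3.56 and -3.19 in 686, -2.82 and -3.04 in 713, -1.56 and -1.34 in dHet pro-B cells and -2.69 and -2.52 in wt pro-B cells. Leukemia 760 lay above both other leukemias and below dHet pro-B cells on every array. It was 2.03-fold higher in 760 (log2 difference 1.02 ± 0.18 SE, adjusted p = 0.0112) and lower in 686 (-0.84 ± 0.18 SE, adjusted p = 0.048), where replicate 1 was not well above background. With undetected spots at the lowest detected level the difference in 686 was -0.13. The call in 686 was lost in 16 of 22 alternatives. With slide as a block the F test of Ifih1 gave an adjusted p of 0.0569. Ddx58, which encodes RIG-I, and Dhx58, which encodes the related LGP2, did not pass (F adjusted p = 0.167 and 0.0885).

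The ISG15 pair split between 2 leukemias. Usp18, the protease that removes ISG15 from proteins and dampens the type I receptor, had levels of 1.46 and 1.26 in leukemia 713, -0.66 and -2.07 in 686, -0.74 and -1.32 in 760, -1.64 and -1.49 in dHet pro-B cells and -0.28 and -0.34 in wt pro-B cells. Both arrays of 713 lay above all other arrays. Usp18 was 5.91-fold higher in 713 than in the other leukemias (log2 difference 2.56 ± 0.37 SE, adjusted p = 0.00452). Isg15, the ubiquitin-like protein that is coupled to other proteins, had levels of 1.70 and 1.05 in leukemia 760, -0.04 and -0.65 in 686, 0.75 and 0.21 in 713, 0.19 and 0.22 in dHet pro-B cells and 0.31 and 0.65 in wt pro-B cells. The arrays of 760 were the highest of all, and those of 686 the lowest. Isg15 was 2.48-fold higher in 760 (1.31 ± 0.28 SE, adjusted p = 0.0247), with 686 at -1.27 ± 0.28 (adjusted p = 0.0547).

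In the IFIT family, whose proteins bind foreign RNA and hold back its translation, 2 of 3 genes differed. Ifit3 had levels of -3.73 and -3.63 in leukemia 686, -1.94 and -2.21 in 713, -1.83 and -2.15 in 760, -1.72 and -1.71 in dHet pro-B cells and -2.18 and -2.11 in wt pro-B cells. The 2 arrays of 686 were the lowest of the 10, and replicate 1 of them was not well above background. Ifit3 was 3.14-fold lower in 686 (log2 difference -1.65 ± 0.16 SE, adjusted p = 0.00461). Both 713 (0.76 ± 0.16) and 760 (0.89 ± 0.16) were higher than the mean of the other 2 leukemias. Their own means were close (-2.08 and -1.99). With undetected spots set to the lowest detected level, the difference in 686 was -0.85.

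Ifit2 followed another order, with levels of -0.82 and -0.94 in leukemia 760, -2.34 and -1.72 in 686, -2.05 and -1.90 in 713, -0.29 and -0.32 in dHet pro-B cells and -1.47 and -1.36 in wt pro-B cells. Leukemia 686 replicate 1 was not well above background. Ifit2 was highest in dHet pro-B cells and, among leukemias, in 760, which was 2.18-fold above the other 2 (log2 difference 1.12 ± 0.19 SE, adjusted p = 0.0109). With slide as a block its F test gave an adjusted p of 0.0604. Ifit1 was detected on 3 arrays, both of 760 and replicate 2 of 713, with levels between -3.41 and -4.41, and did not pass (F adjusted p = 0.151).

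The OAS family makes short oligoadenylates that activate the ribonuclease RNase L, and 4 of its 6 tested genes differed among leukemias. All 4 were lower in 686 and higher in 713. Oas2 had levels of 0.87 and 0.69 in leukemia 713, -1.18 and -1.18 in 686, -1.51 and -1.07 in 760, 0.02 and -0.13 in dHet pro-B cells and -0.50 and -0.74 in wt pro-B cells. Both arrays of 713 were the highest of the 10, and 686 and 760 overlapped. It was 4.06-fold higher in 713 (log2 difference 2.02 ± 0.18 SE, adjusted p = 0.000822), lower in 686 (-0.93 ± 0.18) and lower in 760 (-1.09 ± 0.18 SE, adjusted p = 0.00822).

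Oas3 had levels of -1.53 and -1.60 in leukemia 713, -3.82 and -3.33 in 686, -2.13 and -2.12 in 760, -4.15 and -4.15 in dHet pro-B cells and -3.30 and -3.99 in wt pro-B cells. It was well above background on both arrays of 713 and 760, on 1 of 686 and 1 of wt pro-B cells, and on neither of dHet pro-B cells. Oas3 was 2.44-fold higher in 713 (1.29 ± 0.23 SE, adjusted p = 0.0102) and lower in 686 (-1.73 ± 0.23). With undetected spots at the lowest detected level these differences were 0.86 and -0.88. A second, dimmer probe of Oas3, detected on 1 array of each leukemia, was at 0.40 in 713 and 0.28 in 686. The gene's fall in 686 therefore depends on the probe.

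Oasl1, an OAS-like protein without synthetase activity that in mice holds back translation of Irf7, had levels of 2.79 and 2.0 in leukemia 713, 0.32 and -0.81 in 686, 2.25 and 1.44 in 760, -3.94 and -4.26 in dHet pro-B cells and 0.63 and 0.41 in wt pro-B cells. Leukemias 713 and 760 overlapped and lay above the other groups, while dHet pro-B cells were far below all. Oasl1 was 3.02-fold higher in 713 (1.59 ± 0.40 SE, adjusted p = 0.0369) and 5.15-fold lower in 686 (-2.37 ± 0.40 SE, adjusted p = 0.0234). Oasl2, its paralog, had levels of -2.75 and -2.73 in leukemia 686, -0.59 and -0.67 in 713, -0.64 and -1.03 in 760, -1.77 and -1.95 in dHet pro-B cells and -1.04 and -1.04 in wt pro-B cells. Both arrays of 686 were the lowest of the 10, replicate 1 not being well above background, 4.02-fold below the other leukemias (-2.01 ± 0.16 SE, adjusted p = 0.00303). Both 713 (1.15 ± 0.16) and 760 (0.85 ± 0.16) were higher than the mean of the other 2 leukemias. Their own means were -0.63 and -0.84. Oas1a and Oas1b did not pass (F adjusted p = 0.199 and 0.739), and Oas1a passed with slide as a block (0.0438).

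Mx2, a dynamin-like GTPase that in mice acts in the cytoplasm against viral replication, had levels of 0.23 and -0.05 in leukemia 713, -1.80 and -2.19 in 686, -0.74 and -0.84 in 760, -1.95 and -0.92 in dHet pro-B cells and 0.93 and 0.56 in wt pro-B cells. The 3 leukemias did not overlap, with 713 highest and 686 lowest, and wt pro-B cells lay above all, while 686 replicate 1 was not well above background. Mx2 was 2.79-fold higher in 713 (log2 difference 1.48 ± 0.30 SE, adjusted p = 0.0173) and lower in 686 (-1.65 ± 0.30). Mx1, its nuclear relative, was well above background in wt pro-B cells alone (-3.43 and -3.59), so it gives no order among leukemias.

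The guanylate-binding and immunity-related GTPases, which interferon-γ induces strongly and which attack the vacuoles of pathogens, differed among leukemias in 3 of 4 genes tested. Gbp3 had levels of 4.26 and 4.55 in leukemia 713, 1.64 and 1.89 in 686, 2.68 and 2.97 in 760, 1.80 and 1.74 in dHet pro-B cells and 1.72 and 1.67 in wt pro-B cells. The 3 leukemias did not overlap, and 686 lay at the level of both pro-B groups. Gbp3 was 4.32-fold higher in 713 (log2 difference 2.11 ± 0.17 SE, adjusted p = 0.000589) and 3.62-fold lower in 686 (-1.86 ± 0.17 SE, adjusted p = 0.0037), and its call in 713 held in every alternative that was run. Its probe lies on chromosome 3, 142236072 to 142236131, plus strand (mm9).

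Gbp2, its neighbour on chromosome 3, had levels of 3.73 and 2.96 in leukemia 713, 1.47 and 0.23 in 686, 2.98 and 2.15 in 760, 1.98 and 1.63 in dHet pro-B cells and 0.67 and 0.62 in wt pro-B cells. Leukemias 713 and 760 overlapped and 686 lay below them. It was 3.12-fold higher in 713 (1.64 ± 0.41 SE, adjusted p = 0.0376) and lower in 686 (-2.11 ± 0.41). Irgm1, which regulates the other immunity-related GTPases, had levels of 4.05 and 3.48 in leukemia 713, 2.70 and 2.56 in 686, 3.22 and 2.93 in 760, 2.93 and 2.82 in dHet pro-B cells and 2.95 and 2.81 in wt pro-B cells. Both arrays of 713 lay above all others, at 1.88-fold over the other leukemias (0.91 ± 0.20 SE, adjusted p = 0.0224). Igtp, of the same family, did not pass (F adjusted p = 0.0964).

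Among the other effectors, Ifi44, a cytoplasmic protein of poorly known action, showed a wide range. Its levels were -0.77 and -0.12 in leukemia 760, -3.74 and -6.13 in 686, -4.88 and -6.75 in 713, -4.52 and -5.16 in dHet pro-B cells and -1.5 and -1.36 in wt pro-B cells. This probe, the brightest of the gene, was well above background on both arrays of 760 and of wt pro-B cells and on no other array. By it Ifi44 was at least 9.98-fold higher in 760 than in the other leukemias (fitted adjusted p = 0.006), a bound set by the lowest level detected on the arrays without signal. Its call in 713 as lower (adjusted p = 0.0302) rests on the same values, and 713 and 686 give no fold between them. A second, dimmer probe of Ifi44 was detected on 1 array of 760, on 1 of dHet pro-B cells and on both of wt pro-B cells, and was higher in 760 by 1.20.

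Rsad2, which encodes the antiviral enzyme viperin, had levels of -4.17 and -4.92 in leukemia 686, -2.10 and -2.45 in 713, -2.40 and -2.39 in 760, -2.34 and -2.69 in dHet pro-B cells and -2.75 and -2.70 in wt pro-B cells. Neither array of 686 was well above background, and the other 8 arrays lay close together. Rsad2 was at least 2.14-fold lower in 686 (fitted log2 difference -2.21 ± 0.24 SE, adjusted p = 0.00639). Xaf1, which counters an inhibitor of apoptosis, had levels of 1.80 and 1.26 in leukemia 760, 0.22 and -0.27 in 686, 1.19 and 0.63 in 713, 1.46 and 1.1 in dHet pro-B cells and 0.99 and 1.02 in wt pro-B cells. It was 2.13-fold higher in 760 (1.09 ± 0.26 SE, adjusted p = 0.0357) and lower in 686 (-1.25 ± 0.26), where both arrays were the lowest of the 10.

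Parp14, an ADP-ribosyltransferase, had levels of 1.92 and 2.19 in leukemia 686, 2.74 and 2.99 in 713, 2.76 and 3.04 in 760, 3.02 and 3.04 in dHet pro-B cells and 3.13 and 3.04 in wt pro-B cells. Both arrays of 686 were below all others (log2 difference -0.82 ± 0.16 SE, adjusted p = 0.0397). Its 2 further probes lay apart from each other, at -0.93 and 0.49 in 686, so the gene's fall there depends on the probe. Isg20, an exonuclease, had mean levels of 0.10 in 686, 1.36 in 713 and 1.43 in 760 and did not pass (F adjusted p = 0.056), and it passed with slide as a block (0.0189). The p200 genes Ifi203 and Ifi204, whose proteins bind DNA, were bright on every array and lay at -0.53 and -0.59 in 686 without passing (F adjusted p = 0.113 and 0.0568). Trim30a, a RING protein that restrains Toll-like receptor signalling, had levels of 1.5 and 0.76 in leukemia 686, 2.88 and 2.59 in 713, 2.65 and 1.80 in 760, 2.43 and 2.21 in dHet pro-B cells and 2.48 and 2.55 in wt pro-B cells. It differed by the F test (adjusted p = 0.0404), with both arrays of 686 the lowest of the 10.

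**Figure D3:**
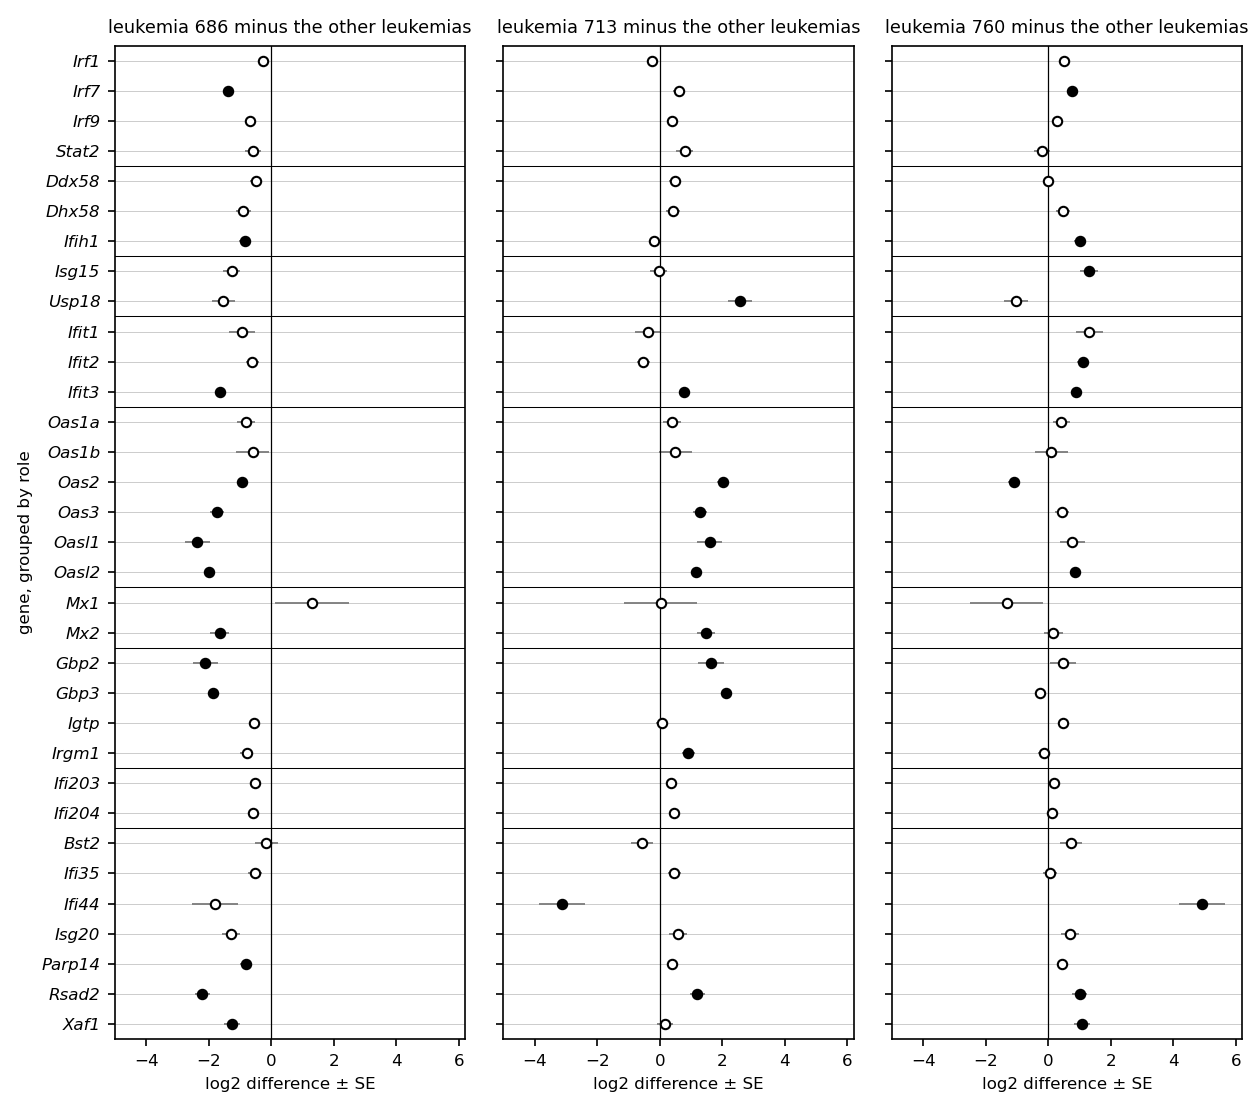
Log2 difference of each leukemia from the mean of the other leukemias for the 33 tested genes (points, with limma's SE as bars; filled points passed an adjusted p of 0.05); rows are genes grouped by role. In the panel of 686, 32 of 33 points lie left of 0, with 13 filled; in the panels of 713 and 760, 11 and 9 filled points lie right of 0.

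Markers of other cells also differed among the leukemias, not all in the same order, and their part in the result was not tested. Of all genes, 4.27% were called in 686, 15.4% in 713 and 12% in 760. In such bulk RNA, fewer cells of a type and less RNA per cell cannot be told apart. Of 12 macrophage and monocyte markers tested, 8 were higher and 1 lower in 713, 4 higher and 0 lower in 686, and 0 higher and 9 lower in 760. Their summed signal, in units of the 75th percentile, was 63.6 and 64.6 in 713, against 93.2 and 118 in 686 and 17.4 and 15.5 in 760. Of 7 NK and cytotoxic markers tested, 3 were higher and 1 lower in 713, and 1 higher and 3 lower in 760, with sums of 33.6 and 28.9 in 713, 46.2 and 28.4 in 760 and 25.9 and 22.5 in 686. Of 6 neutrophil markers 5 were higher in 686, with sums of 20.5 and 28.7 against 0.342 to 3.37 in the other leukemias. Of 8 plasmacytoid dendritic cell markers 4 were higher in 713 (sums of 273 and 255, against 37.9 to 95.3), and 1 was lower in 686. Of the defining markers, Siglech was detected on 1 and Klk1 on 0 of the 6 leukemia arrays. Of 8 T cell markers 2 were higher and 2 lower in 760, with sums of 42.4 and 32.2 against 10.3 to 16.2, and Cd4 and Cd28 were detected on no array. The erythroid gene Hba-a1 was at 6.42 and 5.72 in 713, 2.50 and 0.05 in 686 and 4.90 and 4.02 in 760.

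The second comparison set the 3 leukemic mice against wt pro-B cells, with the 2 arrays of each mouse averaged. Oas1a and Igtp were higher, and Irf1, Stat2, Ddx58 and Mx1 were lower, 2 and 4 of 33 (18.2%), against 58.8% of all genes called in either direction, 31.3% higher and 27.5% lower. The median difference of the 33 genes was 0.02 and that of all genes 0.06. The mice did not share a direction. Leukemia 686 lay below wt pro-B cells for 25 of 33 genes (median -0.62), leukemia 713 above them for 19 (0.41) and leukemia 760 for 24 (0.46). Without mouse 686 the fit called 12 genes higher and 4 lower, and without mouse 713 it called 2 higher and 8 lower. Over all genes it then called 4213 higher and 3710 lower without 686, and 4912 and 4429 without 713. Since 686 had the lowest mean for 28 of 33 genes, leaving it out raises the leukemia mean of those genes. The median difference of the 33 genes was 0.37 without 686, -0.04 without 713 and -0.23 without 760. Fitted over the 10 arrays with the replicate number as a block, which counts arrays rather than mice, 10 were higher and 7 lower.

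Scaling moves this comparison as a whole. The median of all genes was 0.63 when arrays were scaled by their median and -0.30 when scaled on probes detected on all arrays. The 33 genes lay -0.04 from the median of all genes in each, which is fixed, since these scalings subtract 1 value per array. With quantile normalization this distance was 0.0047, with normexp -0.13 and in the authors' table -0.012. With the array median 8 genes were higher and 3 lower, and with the probes detected on all arrays 2 were higher and 7 lower. The share of higher genes among all called was 53.3% in the scaling used here, 73.7% with the array median and 35.1% on probes detected on all arrays. Igtp, Stat2 and Ddx58 kept their calls in all 27 alternatives that were run, Irf1 in 26, Oas1a in 25 and Mx1 in 15 of 26.

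Stat2, a transcription factor of the type I response, had levels of 0.40 and 1.02 in leukemia 686, 1.40 and 1.88 in 713, 0.66 and 1.28 in 760, 2.26 and 2.22 in dHet pro-B cells and 2.95 and 2.79 in wt pro-B cells. Every leukemia array lay below both pro-B groups. It was 3.39-fold lower in leukemias than in wt pro-B cells (a log2 difference of -1.76 ± 0.28 SE, adjusted p = 0.00338, n = 3 mice against 2 arrays) and 2.2-fold lower than in dHet pro-B cells (-1.13 ± 0.28 SE, adjusted p = 0.0215). Irf1, a transcription factor that both kinds of interferon induce, had levels of 3.97 and 3.73 in leukemia 686, 3.98 and 3.71 in 713, 4.52 and 4.18 in 760, 4.5 and 4.53 in dHet pro-B cells and 5.12 and 5.15 in wt pro-B cells. It was 2.17-fold lower in leukemias than in wt pro-B cells (-1.12 ± 0.19 SE, adjusted p = 0.00416), and the 6 leukemia arrays lay below both wt arrays. When scaled by the array median the Irf1 difference was -0.55 and did not pass.

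Ddx58 had levels of -0.10 and -0.35 in leukemia 686, 0.31 and 0.56 in 713, 0.29 and -0.06 in 760, 0.95 and 0.71 in dHet pro-B cells and 1.54 and 1.73 in wt pro-B cells. The groups followed one another without overlap, leukemias lowest and wt pro-B cells highest. Ddx58 was 2.87-fold lower in leukemias than in wt pro-B cells (-1.52 ± 0.22 SE, adjusted p = 0.00248), and its 3 further probes were at -1.07, -1.18 and -1.73. Mx1 had levels of -2.03 and -7.05 in leukemia 686, -5.72 and -5.05 in 713, -6.02 and -6.57 in 760, -6.30 and -6.35 in dHet pro-B cells and -3.43 and -3.59 in wt pro-B cells. It was well above background in wt pro-B cells only, so the bound is small, at least 1.25-fold lower in leukemias (fitted adjusted p = 0.0185), and leukemia 686 replicate 1, though not well above background, lay above both wt arrays.

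Oas1a, one of the synthetases of the OAS family, had levels of 1.95 and 1.33 in leukemia 686, 2.61 and 2.26 in 713, 2.75 and 2.17 in 760, -0.69 and -1.26 in dHet pro-B cells and 0.72 and 0.76 in wt pro-B cells. All 6 leukemia arrays lay above wt pro-B cells, and wt pro-B cells above dHet pro-B cells. It was 2.71-fold higher in leukemias than in wt pro-B cells (a log2 difference of 1.44 ± 0.31 SE, adjusted p = 0.0106) and 8.88-fold higher than in dHet pro-B cells (3.15 ± 0.31 SE, adjusted p = 0.00137). Its probe lies on chromosome 5, 121348348 to 121348407, minus strand (mm9). Igtp, also called Irgm3, had levels of 2.90 and 3.32 in leukemia 686, 3.48 and 3.56 in 713, 3.82 and 3.79 in 760, 2.26 and 2.26 in dHet pro-B cells and 2.36 and 2.20 in wt pro-B cells. It was 2.3-fold higher in leukemias than in wt pro-B cells (1.20 ± 0.22 SE, adjusted p = 0.00549) and 2.33-fold higher than in dHet pro-B cells (1.22 ± 0.22 SE, adjusted p = 0.00755), with no overlap in either case.

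Several genes with wide ranges among the mice gave mean differences from wt pro-B cells that did not pass. Mx2 was at -1.64 ± 0.64 (adjusted p = 0.0715), with all 6 leukemia arrays below both wt arrays. Gbp2 was at 1.61 ± 0.70 (adjusted p = 0.0969) and Gbp3 at 1.30 ± 0.72 (0.171). For Gbp3, leukemia 713 stood 2.71 and leukemia 760 1.13 above wt pro-B cells, against 0.07 for 686. Usp18 stood 1.67 above wt in 713, against -1.06 in 686 and -0.72 in 760.

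Plasmacytoid dendritic cell markers and neutrophil markers also differed in this comparison. Of 8 markers of the first kind 6 were lower in leukemias, with summed signals of 37.9 to 273 in leukemias and 471 and 430 in wt pro-B cells, where Siglech and Klk1 were detected on both arrays. Of 6 neutrophil markers 5 were lower, with sums of 0.342 to 28.7 in leukemias and 64.7 and 132 in wt pro-B cells. T cell markers ran the other way, 5 of 8 higher, with sums of 10.3 to 42.4 against 2.42 and 2.54. Of 7 B lineage markers 2 were higher and 4 lower (sums of 893 to 1112, against 975 and 991), of 12 macrophage and monocyte markers 3 were higher and 1 lower, and of 7 NK and cytotoxic markers 2 were higher. Their part in the result was not tested.

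The third comparison set the leukemias against dHet pro-B cells, which share the Ebf1+/- Pax5+/- genotype. In leukemias 5 genes were higher and 4 lower, against 46.2% of all genes called in either direction, 21.8% higher and 24.4% lower. The genes higher in leukemias were Oasl1, Oas1a, Bst2, Igtp and Ifi35, and those lower were Ifih1, Ifit2, Stat2 and Ddx58. The median difference was 0.28, against -0.06 for all genes. By mouse, 25 of 33 genes lay above dHet pro-B cells in 760 and 22 in 713, against 9 in 686. Without either dHet pro-B array 2 genes were called, Oas1a and Oasl1. With the replicate number as a block over the 10 arrays, 10 were higher and 11 lower. Scaled by the array median 5 were higher and 0 lower (7 and 3 at an unadjusted p under 0.05), and the share of higher genes among all called was 62.5%, against 47.1% in the scaling used here and 38.1% when scaled on probes detected on all arrays.

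Oasl1, whose levels are given above, was 43.1-fold higher in leukemias than in dHet pro-B cells (log2 difference 5.43 ± 0.76 SE, adjusted p = 0.00359), with all 6 leukemia arrays above both dHet arrays. By mouse the difference was 3.85 in 686, 6.49 in 713 and 5.95 in 760. One of the dHet pro-B arrays was not well above background for it, so the size of the fold is uncertain, and with undetected spots at the lowest detected level the difference was 5.35. Its probe lies on chromosome 5, 115387556 to 115387615, plus strand (mm9), beside that of Oasl2.

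Bst2, which encodes tetherin, a membrane protein that holds budding virus at the cell surface and also marks plasmacytoid dendritic cells, had levels of 4.57 and 4.01 in leukemia 686, 4.51 and 3.52 in 713, 5.30 and 4.45 in 760, 3.25 and 2.91 in dHet pro-B cells and 4.13 and 4.19 in wt pro-B cells. All leukemia arrays lay above the dHet arrays and overlapped the wt arrays. It was 2.49-fold higher in leukemias than in dHet pro-B cells (log2 difference 1.31 ± 0.27 SE, adjusted p = 0.0123). Ifi35, a small leucine-zipper protein, had levels of 2.54 and 2.26 in leukemia 686, 3.23 and 2.88 in 713, 3.08 and 2.49 in 760, 1.73 and 1.67 in dHet pro-B cells and 2.34 and 2.47 in wt pro-B cells. It was 2.07-fold higher in leukemias than in dHet pro-B cells (1.05 ± 0.21 SE, adjusted p = 0.0107) without overlap, and overlapped wt pro-B cells.

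Of the genes lower in leukemias than in dHet pro-B cells, Ifih1 was 2.57-fold lower (-1.36 ± 0.36 SE, adjusted p = 0.0272) and Ifit2 2.51-fold lower (-1.33 ± 0.37 SE, adjusted p = 0.0303). Every leukemia array was below both dHet arrays for each of them. A second probe of Ifit2 gave -2.81 here and, against wt pro-B cells, -1.64, where the brightest probe gave -0.21. Ddx58 was 1.65-fold lower (-0.72 ± 0.22 SE, adjusted p = 0.0429), and its call was lost in 14 of 27 alternatives. Of the markers of other cells, 7 of 12 macrophage and monocyte genes and 4 of 8 T cell genes were higher in leukemias than in dHet pro-B cells, with sums of 15.5 to 118 against 21.3 and 24.0, and of 10.3 to 42.4 against 3.67 and 5.76. A further 1 of the 12 was lower, as were 4 of 8 plasmacytoid dendritic cell markers (37.9 to 273, against 125 and 141). Of 7 B lineage markers 5 were lower and 0 higher (sums of 893 to 1112, against 1814 and 1571), and of 7 NK and cytotoxic markers 2 were higher. Their part was not tested.

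The fourth comparison set dHet pro-B cells against wt pro-B cells, which differ in genotype, in origin and in culture. In dHet pro-B cells 3 genes were higher, Ifih1, Ifit2 and Irf7, and 7 were lower, Oasl1, Ifi44, Mx2, Oas1a, Oasl2, Ddx58 and Irf1. All genes were called in 31.6% in either direction, 16.7% higher and 14.8% lower. The median difference was -0.06, against 0.13 for all genes. Of 6 OAS genes 3 fell, while Oas2 and Oas3 were at 0.56 and -0.51 (adjusted p = 0.076 and 0.194). This comparison has 2 arrays on each side, and 5 genes were called without dHet replicate 1, 2 without dHet replicate 2, 3 without wt replicate 1 and 5 without wt replicate 2, always with Oasl1 and Mx2 among them. With normexp 0 were higher and 1 lower, against 2 and 5 at an unadjusted p under 0.05, and over all genes 213 were higher and 290 lower. Scaled by the array median 4 were higher and 4 lower, and on probes detected on all arrays 2 were higher and 11 lower, with 64.7% and 39.9% of all called genes higher, against 53% in the scaling used here.

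Oasl1 was 24.5-fold lower in dHet pro-B cells (log2 difference -4.62 ± 0.46 SE, adjusted p = 0.00049), the only one of these genes called in all 21 alternatives run for it. Mx2 was 4.53-fold lower (-2.18 ± 0.35 SE, adjusted p = 0.00349) and Oas1a 3.28-fold lower (-1.71 ± 0.32 SE, adjusted p = 0.00687). The brightest probe of Ifi44 was detected on neither dHet array and on both wt arrays, at least 6.18-fold lower in dHet pro-B cells (fitted adjusted p = 0.0212). Its second probe, at -1.08, was detected on dHet replicate 2, at a level of -2.83, so the bound holds for the brightest probe alone. The falls of Oasl2 (-0.82 ± 0.18), Ddx58 (-0.80 ± 0.21) and Irf1 (-0.62 ± 0.19) were smaller, each without overlap of the groups.

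The 3 genes that were higher in dHet pro-B cells were Ifih1, 2.22-fold (1.15 ± 0.21 SE, adjusted p = 0.00565), Ifit2, 2.16-fold (1.11 ± 0.23 SE, adjusted p = 0.00954), and Irf7, 1.92-fold (0.94 ± 0.19 SE, adjusted p = 0.0101). The arrays of the 2 groups did not overlap for these either, which says little with 2 arrays on each side. The genes that differed here do not follow 1 role: the transcription factor Irf7 and the sensor Ifih1 were higher in dHet pro-B cells, whereas Irf1 and Ddx58 of the same roles were lower. Since leukemias were compared with each pro-B group in turn, these 3 comparisons share arrays. Markers moved here too, and their part was not tested: 6 of 8 plasmacytoid dendritic cell markers were lower in dHet pro-B cells (sums of 125 and 141, against 471 and 430 in wt pro-B cells), as were 6 of 6 neutrophil markers (0.617 and 0.316, against 64.7 and 132) and 9 of 12 macrophage and monocyte markers (21.3 and 24.0, against 16.7 and 26.2). The macrophage and monocyte sums, taken over the 13 genes with a probe and weighted toward bright ones, overlapped between the groups. The median log2 difference of the 12 genes tested was -2.47. Of 7 B lineage markers 3 were higher (sums of 1814 and 1571, against 975 and 991).

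**Figure D4:**
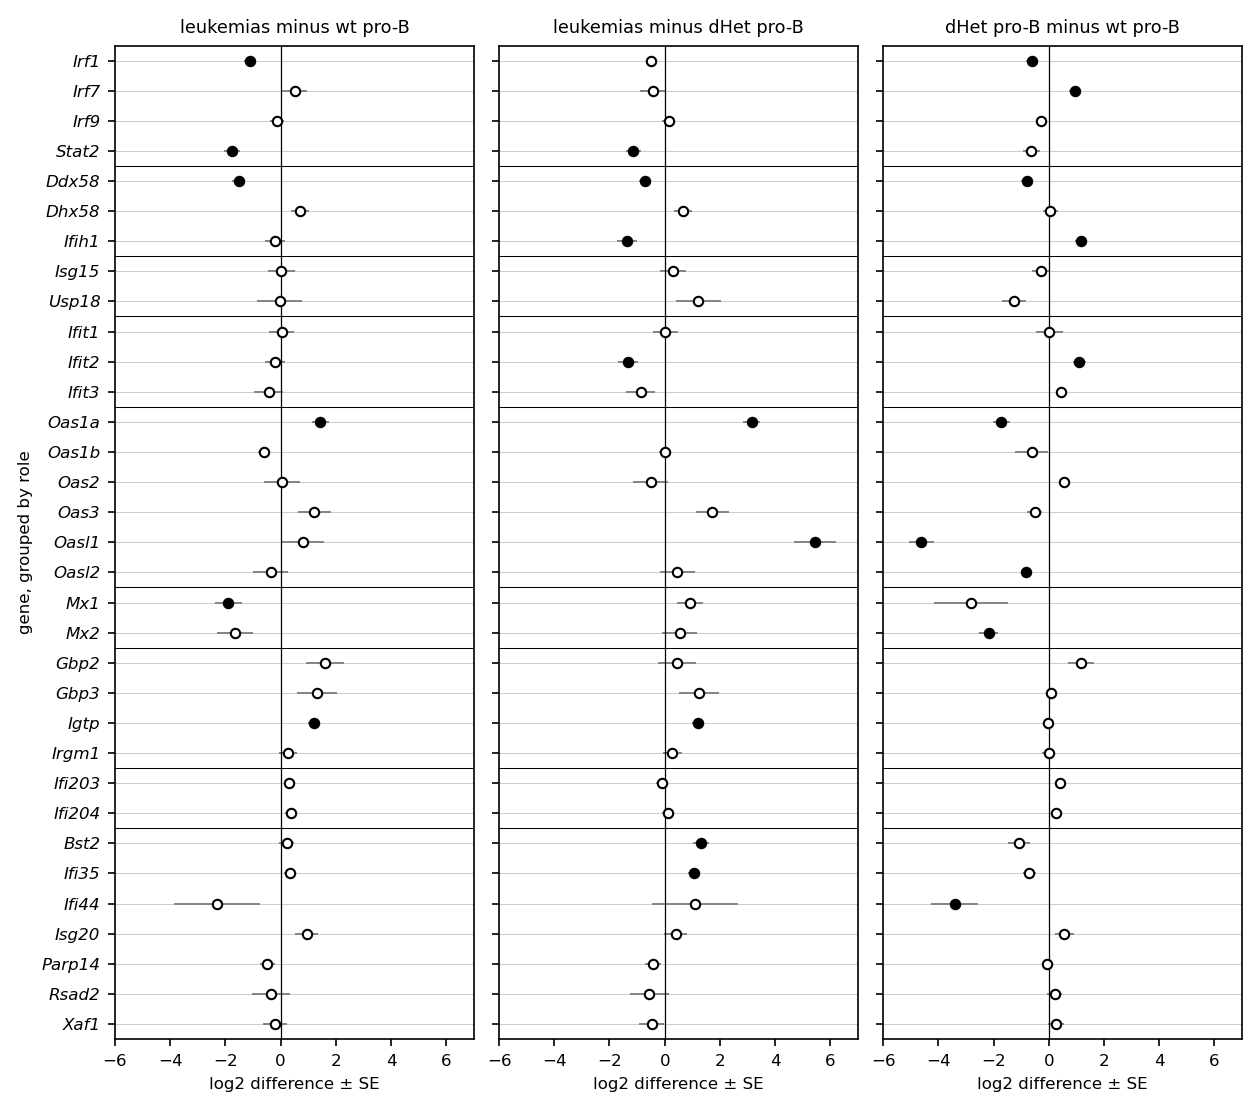
Log2 differences of the 33 tested genes for leukemias minus wt pro-B cells, leukemias minus dHet pro-B cells and dHet minus wt pro-B cells (points with limma's SE as bars; filled points passed an adjusted p of 0.05; genes grouped by role). In the third panel Oasl1 lies at -4.62 and in the second at 5.43, while the panel for wt pro-B cells has 6 filled points.

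**Figure D5:**
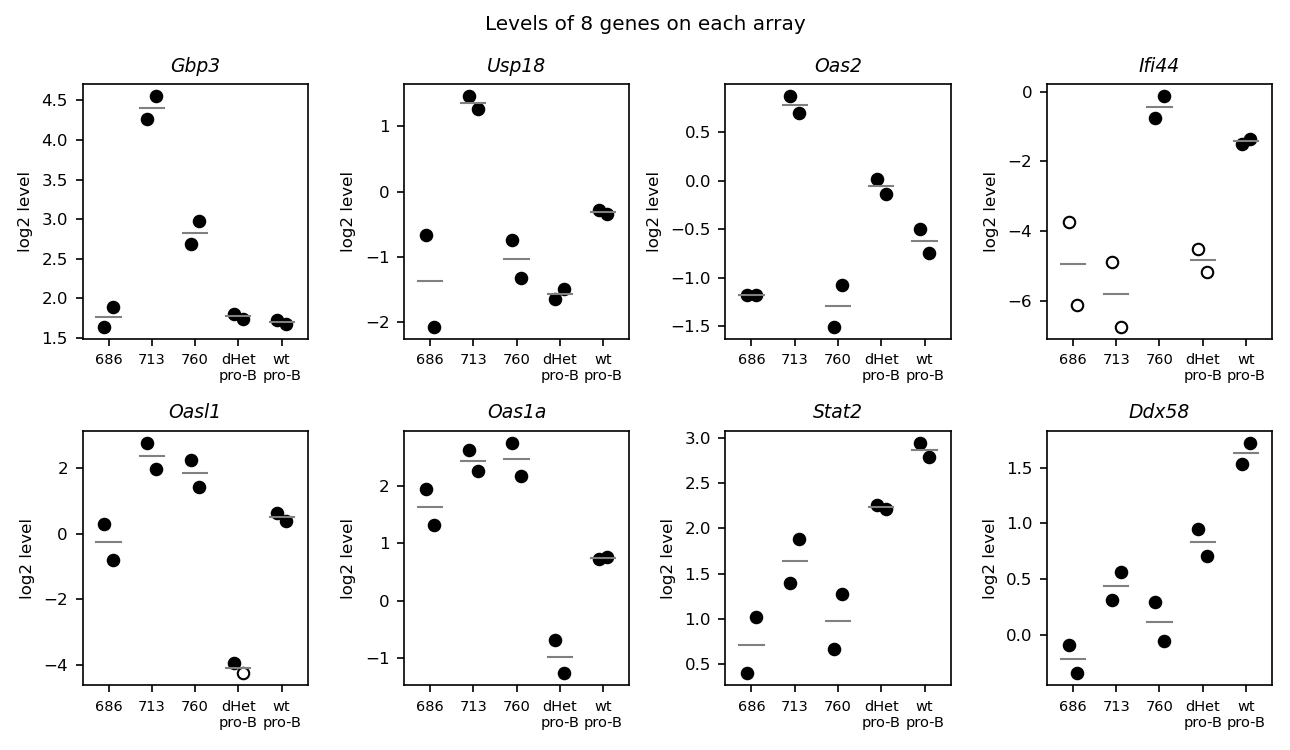
Log2 levels of 8 genes on each array (points) by group, relative to the 75th percentile of the array, with group means as bars and open symbols for spots not well above background. Gbp3, Usp18 and Oas2 are highest in leukemia 713, Ifi44 in leukemia 760, and Stat2 is lower on all leukemia arrays than on the pro-B arrays.

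The genes left to describe passed no test. Ifit1 was detected on 3 arrays, as above. Oas1b had mean levels of -3.61 in leukemia 686, -2.88 in 713 and -3.15 in 760, -3.23 in dHet pro-B cells and -2.61 in wt pro-B cells. Dhx58 had means of -0.27 in 686, 0.60 in 713 and 0.64 in 760, -0.32 in dHet pro-B cells and -0.37 in wt pro-B cells. For Ifi203 the level lay between 3.94 and 4.71 on all 10 arrays and for Ifi204 between 2.78 and 3.62. Isg20 stood higher in leukemias 713 and 760 than on all pro-B arrays, but 686 overlapped them.

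Counted by role, 4 of 6 OAS genes, 3 of 4 GTPases of the guanylate-binding and immunity-related families, 2 of 3 IFIT genes, 1 of 2 Mx genes, both genes of the ISG15 pair and 4 of 7 other effectors differed among leukemias by the F test, as did 2 of 4 transcription factors, 1 of 3 RNA sensors and 0 of 2 p200 genes. Both p200 genes had an unadjusted p under 0.05 (0.0261 for Ifi203 and 0.00977 for Ifi204 by limma's F test).

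The rest of the pathway was read from lists of related genes. Of 9 ligand genes listed, 6 had a probe and only Ifng was tested. It was detected in wt pro-B cells alone, at -1.67 and -1.81, and was at least 4.31-fold lower in leukemias and at least 4.99-fold lower in dHet pro-B cells. Among the type I ligands, a signal well above background was seen for Ifna2 on leukemia 686 replicate 1 alone.

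Of 8 receptor and kinase genes tested, 0 differed among leukemias by limma's F test (2 at an unadjusted p under 0.05). In leukemias Ifngr1, the ligand-binding chain of the interferon-γ receptor, was higher than in wt pro-B cells (1.94 ± 0.12 SE, adjusted p = 0.000296) and than in dHet pro-B cells (0.90 ± 0.12). Its levels were 5.00 and 5.23 in leukemia 686, 4.82 and 5.10 in 713, 4.79 and 5.09 in 760, 4.17 and 4.04 in dHet pro-B cells and 3.02 and 3.11 in wt pro-B cells, with no overlap between leukemias and pro-B cells. Ifnar1, a chain of the type I receptor, was higher in leukemias than in wt pro-B cells (1.17 ± 0.25 SE, adjusted p = 0.0101), and Jak2, a kinase of the interferon-γ receptor, was lower than in dHet pro-B cells (-0.95 ± 0.29 SE, adjusted p = 0.0403). Ifngr1 was also higher in dHet than in wt pro-B cells (1.04 ± 0.19).

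Of the 6 further STAT and IRF factors, 3 differed among leukemias, 4 were higher in 713 and 2 lower in 686. Irf8, a factor of B and myeloid cells, was 9.8-fold higher in 713 (3.29 ± 0.37 SE, adjusted p = 0.0016) and lower in dHet than in wt pro-B cells (-2.34 ± 0.42), and Irf5 was 2.04-fold higher in 713 (1.03 ± 0.26 SE, adjusted p = 0.0368). Irf4, a factor of pre-B and plasma cells, was 11.7-fold lower in leukemias than in wt pro-B cells (-3.54 ± 0.33 SE, adjusted p = 0.000628).

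Of 9 sensors and adaptors tested, 4 were higher and 2 lower in leukemias than in wt pro-B cells, and 3 higher and 2 lower than in dHet pro-B cells, where 58.8% and 46.2% of all genes were called. Tlr7, the endosomal sensor of single-stranded RNA, was 9.53-fold higher than in wt pro-B cells (3.25 ± 0.32 SE, adjusted p = 0.000712). Mb21d1, which encodes the DNA sensor cGAS, was 4.64-fold higher (2.21 ± 0.55 SE, adjusted p = 0.0171). Tlr9, the sensor of unmethylated CpG DNA, was 3.03-fold lower (-1.60 ± 0.21 SE, adjusted p = 0.00186). Tmem173, the adaptor STING, was 2.38-fold higher (1.25 ± 0.21 SE, adjusted p = 0.00388). Zbp1, a sensor of Z-form nucleic acid that interferon itself induces, was 7.61-fold lower than in wt pro-B cells (-2.93 ± 0.77 SE, adjusted p = 0.0198) and 4.73-fold higher in 713 than in the other leukemias (2.24 ± 0.25 SE, adjusted p = 0.00166).

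Of 7 feedback and ISG15 conjugation genes, 0 differed among leukemias by limma's F test (2 at an unadjusted p under 0.05), 1 was lower in leukemias than in wt pro-B cells and 1 higher than in dHet pro-B cells. That last was Ptpn6, the phosphatase SHP-1 (1.82 ± 0.22 SE, adjusted p = 0.00238). Of 27 further interferon-stimulated genes tested, 12 differed among leukemias, 5 being lower and 0 higher in 686 (11 and 2 at an unadjusted p under 0.05), 6 higher and 4 lower in 713, and 3 higher and 2 lower in 760. Ly6a, the surface protein Sca-1, was 14.4-fold higher in 713 (3.84 ± 0.44 SE, adjusted p = 0.00176), with levels of 6.27 and 5.67 in leukemia 713, 2.98 and 1.64 in 686, 2.46 and 1.42 in 760, 3.05 and 3.40 in dHet pro-B cells and 1.39 and 1.48 in wt pro-B cells. Ifi27l2a, a small mitochondrial protein, was at 7.09 and 6.95 in 713 and 4.93 and 3.27 in 686. The guanylate-binding protein Gbp4 was 4.9-fold higher in 713 (2.29 ± 0.22 SE, adjusted p = 0.00105), whereas Gbp6 was detected on neither array of 713 and was at least 2.31-fold lower there. In leukemias 7 of the 27 were higher and 4 lower than in wt pro-B cells, and 9 higher and 0 lower than in dHet pro-B cells (10 and 1 at an unadjusted p under 0.05), against the same 58.8% and 46.2% of all genes. Lgals3bp, a secreted glycoprotein, was 7.29-fold higher than in wt pro-B cells (2.87 ± 0.28 SE, adjusted p = 0.000683). Iigp1, an immunity-related GTPase like Igtp, was detected on both wt arrays and neither dHet array, at least 5.99-fold lower in dHet pro-B cells.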

How the data were processed

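RNA of the 10 samples was measured on one-colour Agilent arrays. The deposited scanner files hold the processed signal intensity of each spot, background-subtracted by the authors' scanner software, which the file headers give as Feature Extraction 10.5.1.1 and the submitters' processing notes as version 9.1. No spot was saturated. Of 45018 spots, 43379 were not controls, and spots of a probe were averaged to 41174 probes. Levels are log2 intensity minus the 75th percentile of the array. Probes well above background on both arrays of at least 1 group were kept, and a gene was represented by its brightest probe, which had to be kept (14436 of 27218 names). Brightest probes were chosen over all 10 arrays. Probe positions are those of the deposited files, mm9.

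Comparisons were fitted with limma 3.58.1 (lmFit and eBayes) in R 4.3.3 over all 14436 genes, with Benjamini-Hochberg adjustment and a threshold of 0.05. Leukemias against pro-B cells used the mean of each mouse (3 mice against 2 arrays, 4 residual degrees of freedom), and the other comparisons used all 10 arrays (5 residual degrees of freedom). Where no array of 1 side was well above background, the fold is a lower bound against the lowest detected level. The members of the gene set and the other lists were chosen with earlier results of these data known. Genes with per-array values were those called by the F test or called with at least a 2-fold difference. Of each other list, up to 6 genes were named, those with the largest called difference, with Ifng and the receptors and kinases besides, and some listed genes are not reported here.

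Replicate deviations correlated at 0.535, 0.443 and 0.633 between the 3 leukemias, whose same-numbered arrays share a slide, and between -0.031 and 0.080 in pairs with a pro-B group, so the numbers were taken to pair leukemia arrays only. The authors' table of log2 values, deposited for 41267 probes, had column medians of 6.83 to 6.85 and correlated at 0.927 to 0.974 with the log2 intensity. Its background correction, centring and floor are not known, and it served as an alternative. Other alternatives were array-median, detected-probe and quantile scaling, normexp with an offset of 50, no filter or detection on all 10 arrays, the mean of all kept probes, undetected spots at a floor, slide, scan day and replicate blocks, arrays as replicates and leaving out each array. Restriction to scan day 2, leaving out each mouse and the fit to 6 leukemia arrays were added after seeing the data. The fits were tested on simulated data. The number of arrays limits the precision.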

Additional observations from a re-analysis of the deposited data

Results flagged for a closer look

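The genes below had leukemia levels that differed between the mice by limma's moderated F test, so that the same contrast with pro-B cells had a different size in each mouse. The value given is the range of the 3 mouse means on the log2 scale. Each mouse has 2 arrays, and mouse, tumour content and tumour cannot be told apart.

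Ifi44 had the widest range of these genes, 5.37, of which part lies below the detection level of 686 and 713. Ranges of more than 2 were seen for Usp18 (2.73), Gbp3 (2.65), Oasl1 (2.64), Gbp2 (2.5), Rsad2 (2.27), Oasl2 (2.11), Mx2 (2.08), Oas2 (2.08) and Oas3 (2.01). In these the lowest mean was that of 686, except in Oas2. Narrower ranges were those of Isg15 (1.72), Ifit3 (1.69), Xaf1 (1.56), Irf7 (1.43), Ifih1 (1.24), Ifit2 (1.15), Irgm1 (1.13), Parp14 (0.841) and Irf9 (0.733).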

How the results depend on the processing

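The F tests, 19 of the single-gene results, have no sign, and no other called result changed sign in any alternative. There were 79 single-gene results in all. Of these, normexp ended 58 calls, no filter on dim probes 44, undetected spots at the floor 21, the array median 18 and the values in the authors' table ended 11, and the cause was not tested except that more genes are tested without a filter. Among leukemias, the F test called 19 of 33 genes in the main fit, against 16.3% of all genes. Normexp gave 4, no filter 9 of 35, detection on all 10 arrays 12 of 21, and slide as a random block and scan day as a block 29 each. The F-test counts over all genes in these alternatives are not given here. For 686 (13 called), normexp gave 0 (14 lower and 0 higher at an unadjusted p under 0.05) and no filter 4. The floor gave 7, the random slide block 26 and the scan day block 25. Over all genes the main fit called 251 higher and 365 lower in 686, normexp 0 and 0, and no filter 37 and 34. The floor called 206 and 220, the random slide block 868 and 1155, and the scan day block 909 and 1266. For 713 (12), normexp gave 4, no filter 4, the random slide block 23, the scan day block 22 and detection on all 10 arrays 6. Over all genes the main fit called 1282 higher and 936 lower in 713, normexp 251 and 109, and no filter 574 and 396. The random slide block called 2449 and 2074, the scan day block 2646 and 2253, and detection on all 10 arrays 819 and 705. For 760 (10), normexp gave 1, no filter 1 and the floor 6. The random slide block gave 18, the scan day block 17 and detection on all 10 arrays 4. Over all genes the main fit called 771 higher and 957 lower in 760, normexp 71 and 129, and no filter 307 and 494. The floor called 589 and 778, and detection on all 10 arrays 491 and 444. The random slide block called 1670 and 1838, and the scan day block 1818 and 1927.

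For leukemias against wt pro-B cells (6), the array median gave 11, the scan day block 20, the replicate block 17 and arrays as replicates 16, and 16 were called without mouse 686 and 10 without mouse 713. Over all genes the main fit called 4520 higher and 3964 lower, the array median 6367 and 2274, and the scan day block 5250 and 4920. The replicate block called 4959 and 4360, and arrays as replicates 4484 and 3930. Without mouse 686, 4213 were higher and 3710 lower, and without mouse 713, 4912 and 4429. Against dHet pro-B cells (9) the array median, scan day block, replicate block and arrays as replicates gave 5, 20, 21 and 17. Over all genes they called 3292, 4005, 3724 and 3277 higher, against 3141 in the main fit. Lower were 1978, 4817, 3945 and 3351, against 3527. Between pro-B groups (10), normexp gave 1, the values in the authors' table gave 16 and no filter 4. Detection on all 10 arrays gave 6, the random slide block 19 and the scan day block 20. Over all genes the main fit called 2416 higher and 2142 lower, normexp 213 and 290, and no filter 1117 and 1277. The authors' table gave 2279 and 2359, and detection on all 10 arrays 2192 and 983. The random slide block gave 4247 and 3216, and the scan day block 4597 and 3307. The replicate block moved no other count of calls by over 1.5 times. Leaving out 1 array gave 4 to 8 for leukemias against wt, 2 to 10 against dHet, 2 to 13 between pro-B groups, 13 to 19 among leukemias, 6 to 11 for 686, 5 to 14 for 713 and 1 to 13 for 760. Levels of the dimmest genes, such as Ifit1, Mx1 and Oas1b, are limited by background, most on leukemia 686 replicate 1, where the lowest detected level was -2.13, against -3.48 to -4.73 on the other arrays.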

Other observations

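Markers of other lineages moved widely between single leukemias. Fcgr1, the high-affinity IgG receptor of macrophages, was at -0.05 and 0.06 in leukemia 713, where it was detected, against at most -3.67 on the other leukemia arrays. Hba-a1, an α-globin gene of red cells, was at 6.42 and 5.72 in 713 and 4.90 and 4.02 in 760, against 2.50 and 0.05 in 686.

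For several members the probes of a gene did not agree in direction. In 686 the brightest probe of Irf9 was at -0.69 and its second at 0.65, and for Parp14 the 3 probes were at -0.82, -0.93 and 0.49. The brightest probe of Oas3 was at -1.73 in 686 and its second at 0.28. Between leukemias and dHet pro-B cells the brightest probe of Ifi44 was at 1.11 and its second at -1.34.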
